A study of Mus musculus with 2 samples.

Results

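The SOX transcription factors examined here were Sox1, Sox2, Sox3, Sox4, Sox8, Sox9, Sox11 and Sox12, 8 genes taken by symbol from a feature table of 31053 genes that held 19 genes named Sox with a number. Single-cell RNA-seq libraries of E13.5 mouse embryo eyecups came from 1 control embryo, Six3+/-;Six6+/-, and 1 littermate double knockout (DKO) embryo, Six3F/F;Six6-/-;a-Cre, and each held retina, lens and blood cells. The control carried 1 functional copy of each gene. In the DKO, Six6 was deleted in the germline, whereas the a-Cre transgene acts in the peripheral retina and not in the central retina, so that the DKO library mixes cells with and without Six3. With 1 library per genotype no test between genotypes was possible, and every interval below is a 95% interval for counting error alone, which does not cover variation between embryos.

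SOX proteins bind DNA through a high-mobility-group box and usually act with a partner factor. The SOXB1 genes Sox1, Sox2 and Sox3 keep neural progenitors undifferentiated, Sox2 is required for the competence of retinal progenitors, and Sox1 and Sox2 activate crystallin genes in the lens. The SOXC genes Sox4, Sox11 and Sox12 are switched on as progenitors become neurons, and Sox4 and Sox11 act together in the formation of retinal ganglion cells. The SOXE genes Sox8 and Sox9 mark multipotent progenitors and, later, Muller glia.

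After filtering, 9822 control cells and 12146 DKO cells remained, with medians of 7620.0 and 5879 unique molecular identifiers (UMIs, each counting 1 captured transcript). The libraries shared 22 cell barcodes before filtering and 20 after it. Levels are given as UMIs of a gene per 1000000 UMIs of the cells named (CPM), and genotypes were compared as log2 of the DKO level over the control level. Cells were clustered without the SOX genes, and clusters were named from marker genes of other families: naive-like progenitors (3410 control and 2360 DKO cells), neurogenic-like progenitors (1423 and 1727), ganglion-like neurons (931 and 2092), amacrine- or horizontal-like neurons (130 and 192), photoreceptor-like cells (93 and 115), margin-like cells with ciliary margin and pigment markers (430 and 813) and lens-like cells (410 and 403). Cluster 6 (469 and 811 cells), cluster 13 (5 and 534 cells, led by Fabp7 and Dbx1) and cluster 11 (645 DKO cells and no control cell, led by Rspo3, Tbr1, Lhx9 and Eomes) are given by number. Six6 was at 367 CPM in control and 51.2 CPM in DKO naive-like cells, a log2 ratio of -2.84. Six3 was at 309 and 292 CPM in the same cells. The Six3 deletion removes the first exon, so a 3' tag is an incomplete check of it. The paper did report that coverage of the 3' part also fell in bulk RNA-seq of mutant retinas. Of the DKO naive-like cells, 74.2% lay outside the subclusters low in Six3 described below, and had Six3 at 346 CPM. Six3 was at 112 and 84.1 CPM in DKO cells of clusters 6 and 13. Ddx3y on the Y chromosome was at 68.2 CPM in control and 71.6 CPM in DKO cells, and Xist had 22 and 8 UMIs, so both libraries were male, which matters for the X-linked Sox3.

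The 8 genes lie on 8 chromosomes. In the annotation of the mouse build GRCm38 (GENCODE vM21, the build of the deposited counts being mm10), Sox1 lies at chr8:12395295-12400126, Sox2 at chr3:34650405-34652461, Sox3 at chrX:60891366-60893430, Sox4 at chr13:28948919-28953713, Sox8 at chr17:25565892-25570686, Sox9 at chr11:112782224-112787760, Sox11 at chr12:27334264-27342574 and Sox12 at chr2:152393611-152398063. Sox1, Sox2 and Sox9 are on the plus strand and the others on the minus strand. The RefSeq promoter table held a window for 6 of the 8 genes, and none for Sox3 and Sox9. Upstream sequences are shown for Sox4 and Sox11, the pair whose levels ran most alike over the cell clusters, and for Sox2, which ran differently. Each is given 5′ to 3′ on the gene's strand. Those of Sox2 and Sox11 end just before the RefSeq start, and that of Sox4 stops 14 bases short of it, where the GENCODE gene begins, which leaves 1 of its 4 CCAAT boxes out. The capitals mark CCAAT boxes read on either strand (CCAAT or ATTGG).
Sox4, chr13:28953714-28953949: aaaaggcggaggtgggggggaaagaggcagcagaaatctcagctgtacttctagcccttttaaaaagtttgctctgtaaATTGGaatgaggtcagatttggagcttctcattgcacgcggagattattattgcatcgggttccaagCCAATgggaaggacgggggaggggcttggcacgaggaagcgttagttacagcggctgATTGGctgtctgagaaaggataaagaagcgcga
Sox11, chr12:27342719-27342968: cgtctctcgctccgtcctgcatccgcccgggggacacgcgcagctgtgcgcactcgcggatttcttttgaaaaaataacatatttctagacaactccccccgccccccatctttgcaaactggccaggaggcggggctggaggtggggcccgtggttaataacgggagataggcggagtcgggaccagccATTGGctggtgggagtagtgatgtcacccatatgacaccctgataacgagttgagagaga
Sox2, chr3:34649745-34649994: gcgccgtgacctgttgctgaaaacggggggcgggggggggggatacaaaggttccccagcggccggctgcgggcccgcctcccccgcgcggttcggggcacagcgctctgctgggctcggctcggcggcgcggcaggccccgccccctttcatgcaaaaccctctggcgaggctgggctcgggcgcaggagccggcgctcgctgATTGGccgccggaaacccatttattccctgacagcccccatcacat
All motifs were searched on both strands of the 250 bases before the RefSeq start. A CCAAT box was present in 5 of the 6 genes (Sox1, Sox2, Sox4, Sox11 and Sox12) and in 33.8% of all 32851 promoter windows of the table. The POU octamer ATGCAAAT was present in Sox12 and in 1.60% of all windows. Neither the SOX core ACAAT, present in 27.7% of all windows, nor TGATAC, a core bound by Six3-type factors and present in 4.64%, was found in the 6 windows. The paper reported several peaks of Six3 and Six6 on chromatin at Sox2 in wild-type retinas, mapped by CUT&RUN. A missing motif in 250 bases therefore does not describe binding at that locus.

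The members fell into groups by where they were highest, along the path from naive-like progenitors to neurons. Sox2 was at 259.7 CPM (254 to 265) in control naive-like cells, 133 CPM in neurogenic-like cells and 7.67 CPM (5.87 to 9.86) in ganglion-like cells, a log2 difference of -5.08 (-5.47 to -4.72) from naive-like to ganglion-like. The DKO cells ran down the same path from 183 CPM (178 to 189) to 93.6 CPM and 11.5 CPM, a log2 difference of -4.00 (-4.23 to -3.78). Sox2 was thus highest in naive-like cells and lowest in ganglion-like cells among the 7 eye classes in both libraries, and neighbours between those ends, such as neurogenic-like and margin-like cells of the control at 133 and 116 CPM, had intervals that overlapped. Sox3 and Sox9 took a like path in the control, from 34.1 to 13.6 to 1.89 CPM and from 77.5 to 21.6 to 4.28 CPM.

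Sox4 and Sox11 ran the other way. Sox4 was at 337 CPM in control naive-like cells, 1254 CPM in neurogenic-like cells, 1846 CPM in ganglion-like cells and 2688 CPM in amacrine- or horizontal-like cells. Sox11 was at 567, 1997, 2650.3 and 4589.8 CPM in the same classes. Most of the difference lay between naive-like and neurogenic-like cells, at 1.90 (1.86 to 1.93) for Sox4 and 1.82 (1.79 to 1.84) for Sox11 on the log2 scale, where that from naive-like to ganglion-like cells was 2.45 and 2.22. In cells thinned to 2000 UMIs, a Sox11 UMI was found in 63.3% of control naive-like, 94.4% of neurogenic-like and 99.2% of ganglion-like cells, against 2.35% of red blood-like cells, which should lack it. Unthinned, the shares were 95.3% and 99.6%, all 931 ganglion-like cells and 9.03%, at median depths of 8962, 6714, 8512 and 8455 UMIs.

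Photoreceptor-like cells set Sox4 and Sox11 apart. Sox4 was at 1405 CPM in these cells of the control and Sox11 at 699.5 CPM, so that Sox4 made up 64.4% (61.5 to 67.3) of the SOXC UMIs there, against 39.9% (39.4 to 40.4) in ganglion-like cells and 36.5% (35.2 to 37.8) in amacrine- or horizontal-like cells. Capture can differ between genes, so this share is read between classes and not as a ratio of transcripts. Sox12 followed neither course. It was at 66.3 CPM in control naive-like cells, lower at 38.0 CPM in neurogenic-like cells and higher at 126 CPM in ganglion-like cells, and the intervals of these 3 classes did not overlap.

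Sox1 was highest in the lens. It was at 69.7 CPM (331 UMIs) in control lens-like cells and at 1.35 CPM or below in the other eye classes of the control, with 35 UMIs in 3410 naive-like cells. A Sox1 UMI was found in 13.2% (9.57 to 17.6) of thinned control lens-like cells and in 0 of 1063 red blood-like cells, which allows a share of up to 0.346%. Unthinned, 36.3% of these lens-like cells had a Sox1 UMI, at a median depth of 8089.5 UMIs. Sox2 was at 67.2 CPM in the same lens-like cells, and Sox4 and Sox11 at 171 and 139 CPM were lower there than in any other eye class. Sox8 was barely captured, with 135 UMIs (3.88 CPM) in control naive-like cells, 59 UMIs (2.76 CPM) in DKO naive-like cells and at most 9 UMIs in any other eye class of either library.

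**Figure D1:**
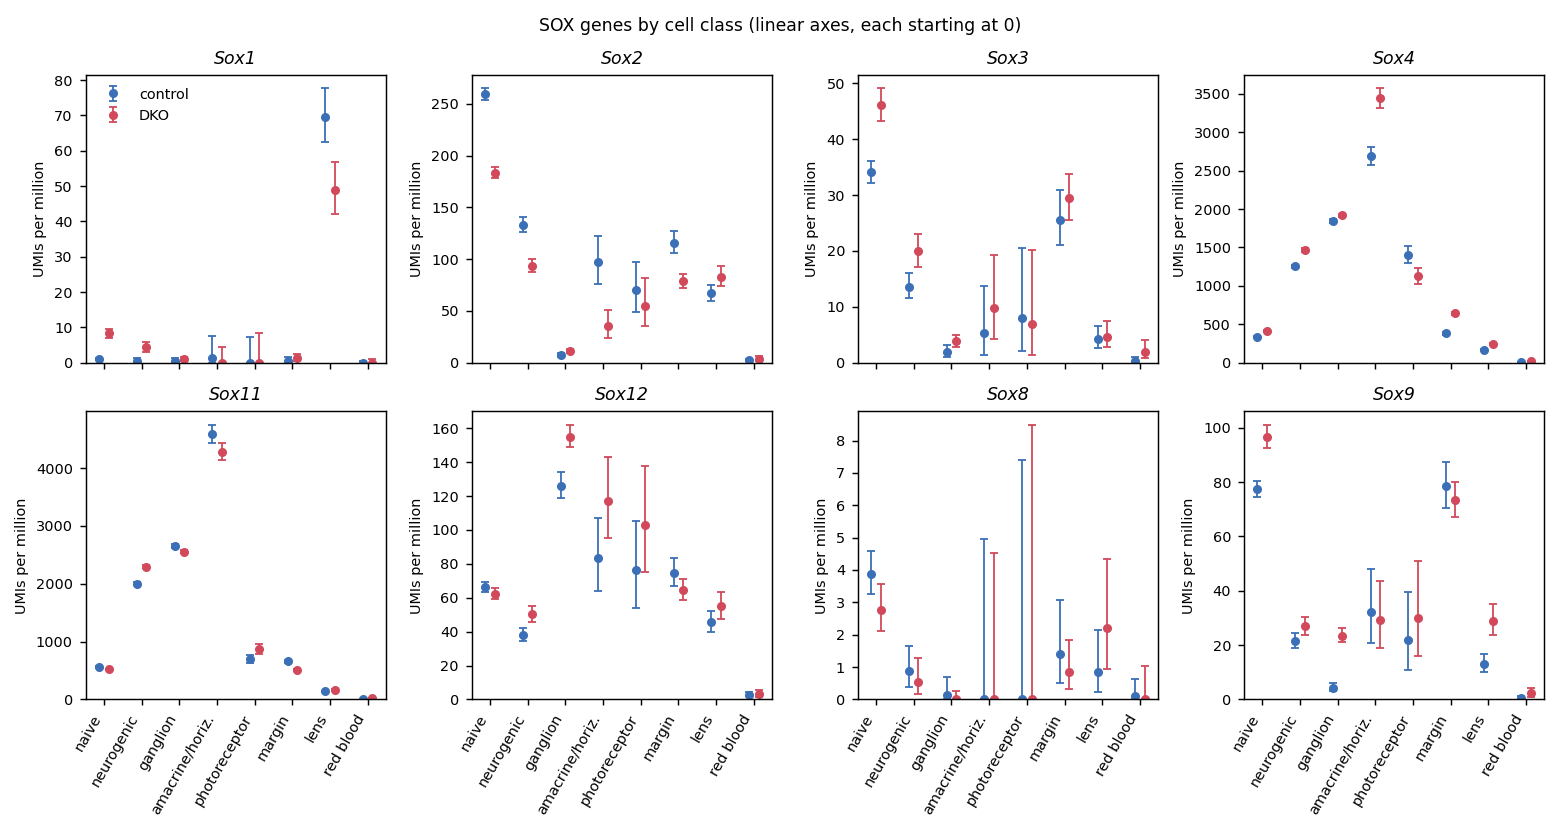
CPM of each SOX gene (vertical axes, linear and from 0, 1 panel per gene) in 7 eye classes and in red blood-like cells, for control (blue) and DKO (red); points are sums over the cells of 1 library and bars are 95% Poisson intervals. Sox2, Sox3 and Sox9 are highest in naive-like or margin-like cells, Sox4 and Sox11 in amacrine- or horizontal-like cells, Sox12 in ganglion-like cells and Sox1 in lens-like cells.

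Across the 41 pairs of cluster and library with at least 50 cells, Sox4 and Sox11 had a Pearson r of 0.97 on log2(CPM + 10). The pairs come from only 2 libraries and neighbouring clusters share a lineage, so this is a description. Among the 6550 genes considered, Sox11 was the third most alike gene to Sox4 after Csnk1e and Synrg, and Sox4 was the second most alike to Sox11 after Rnf165 (r of 0.97 each). Sox2 ran with Id1 (0.95) and Ccnd1 (0.94), a progenitor cyclin, and Sox9 with Phactr2 (0.93), Fhl1 (0.91) and Sox3 (0.90). Sox1 ran with Wnt7b (0.91), Sox3 with Ildr2 (0.92), Sox12 with Zfp428 (0.96) and Sox8 with Gm26771 (0.88). Sox2 and Sox4 had an r of 0.21.

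**Figure D2:**
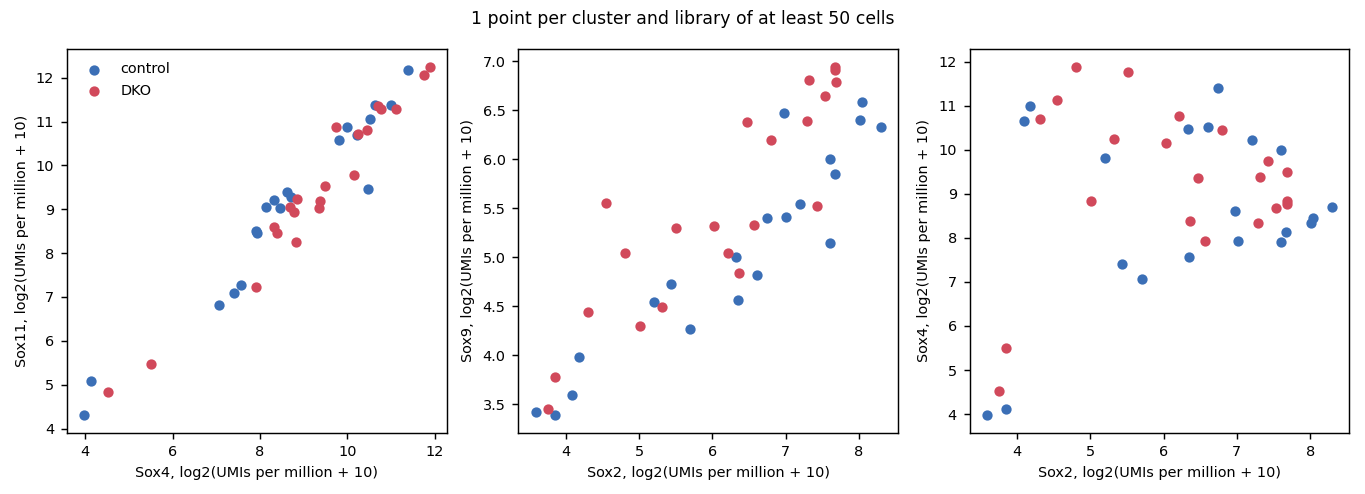
Levels of Sox4 and Sox11, Sox2 and Sox9, and Sox2 and Sox4 against each other, as log2(CPM + 10) on both axes; each point is 1 cluster of 1 library (control blue, DKO red). Sox4 and Sox11 lie along 1 line (r = 0.97), whereas Sox2 and Sox4 (r = 0.21) do not.

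Between the genotypes, Sox2 was lower in DKO progenitors and Sox1 and Sox3 were higher. In naive-like cells Sox2 was at 259.7 CPM (9035 UMIs) in control and 183 CPM (3918 UMIs) in DKO, a log2 ratio of -0.50 (-0.56 to -0.45). In neurogenic-like cells it was at 133 and 93.6 CPM, a log2 ratio of -0.51 (-0.63 to -0.38), and in margin-like cells at 116 and 78.8 CPM, a log2 ratio of -0.56 (-0.73 to -0.38). The share of thinned naive-like cells with a Sox2 UMI was 39.8% (38.1 to 41.5) in control and 30.5% (28.6 to 32.4) in DKO, and 84.4% and 71.3% unthinned, against 0.564% and 0.928% of thinned red blood-like cells. Sox2 was lower in DKO naive-like cells assigned to each phase of the cell cycle, with log2 ratios of -0.41 (-0.64 to -0.18) in G1, -0.47 (-0.57 to -0.38) in S and -0.54 (-0.61 to -0.47) in G2/M.

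Sox1 was at 1.01 CPM (35 UMIs) in control naive-like cells and 8.28 CPM (177 UMIs) in DKO naive-like cells, a log2 ratio of 3.04 (2.51 to 3.61). In neurogenic-like cells it had 6 UMIs (0.579 CPM) in control and 40 UMIs (4.39 CPM) in DKO, a log2 ratio of 2.92 (1.68 to 4.45). DKO red blood-like cells held no Sox1 UMI. Sox3 was at 34.1 CPM (1185 UMIs) and 46.1 CPM (986 UMIs) in naive-like cells, a log2 ratio of 0.44 (0.31 to 0.56), which was 0.16 (0.01 to 0.31) when the libraries were merged without integration and 0.70 at a clustering resolution of 0.3. With Sox2 lower and the other SOXB1 genes higher, Sox2 made up 88.1% (87.5 to 88.7) of the SOXB1 UMIs of control naive-like cells and 77.1% (75.9 to 78.3) of those of DKO naive-like cells. The summed SOXB1 level was 295 CPM in control and 238 CPM in DKO.

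Sox9 was at 77.5 CPM (2696 UMIs) in control and 96.5 CPM (2063 UMIs) in DKO naive-like cells, a log2 ratio of 0.32 (0.23 to 0.40). Sox4 was at 337 CPM (11715 UMIs) and 414 CPM (8843 UMIs), a log2 ratio of 0.30 (0.26 to 0.34). The Sox4 ratio differed by phase, with 0.91 (0.77 to 1.04) in cells assigned to G1, where the levels were 382 and 716 CPM, 0.11 (0.04 to 0.19) in S and 0.30 (0.25 to 0.36) in G2/M. Phase calls also read free RNA, whose part was not tested, and G1 held 11.4% of control and 6.64% of DKO naive-like cells. Sox11 was at 567 and 521 CPM in naive-like cells, a log2 ratio of -0.12 (-0.16 to -0.09), and Sox12 at 66.3 and 62.3 CPM, a log2 ratio of -0.09 (-0.19 to 0.01). When the libraries were merged without integration, the Sox4 ratio in naive-like cells was 0.03.

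Past a difference of 1.5-fold, 1 of the 8 members (Sox1) was higher in DKO naive-like cells and none was lower. The background was 4.59% of 11415 genes higher and 2.16% lower, 6.75% in either direction. The median log2 ratio over the members was 0.10, and over all these genes 0.02.

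In neurogenic-like cells, none of the 6 members with at least 100 UMIs passed 1.5-fold, against a background of 6.37% of 9617 genes higher and 4.47% lower, 10.8% in either direction. Sox11 was at 1997 CPM (20696 UMIs) in control and 2297 CPM (20920 UMIs) in DKO, a log2 ratio of 0.20 (0.17 to 0.23). The difference sat in cluster 2 (2109.6 and 2483 CPM), and not in cluster 10, led among others by the mitotic gene Hmmr (1868 and 1869 CPM). At a clustering resolution of 1 the Sox11 ratio was 0.02, and with another linear algebra kernel 0.04. Sox4 was at 1254 and 1466 CPM, a log2 ratio of 0.23 (0.19 to 0.26) that became 0.03 (-0.01 to 0.07) at a resolution of 1, and it was higher in DKO in cluster 2 (1464 and 1737 CPM) but lower in cluster 10 (1012 and 842 CPM). G1 held 42.3% of control and 59.5% of DKO neurogenic-like cells. Sox3 (13.6 and 19.9 CPM), Sox9 (21.6 and 26.9 CPM) and Sox12 (38.0 and 50.4 CPM) had log2 ratios of 0.55, 0.32 and 0.41. The median log2 ratio over the 6 members was 0.27, and over all genes 0.01.

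**Figure D3:**
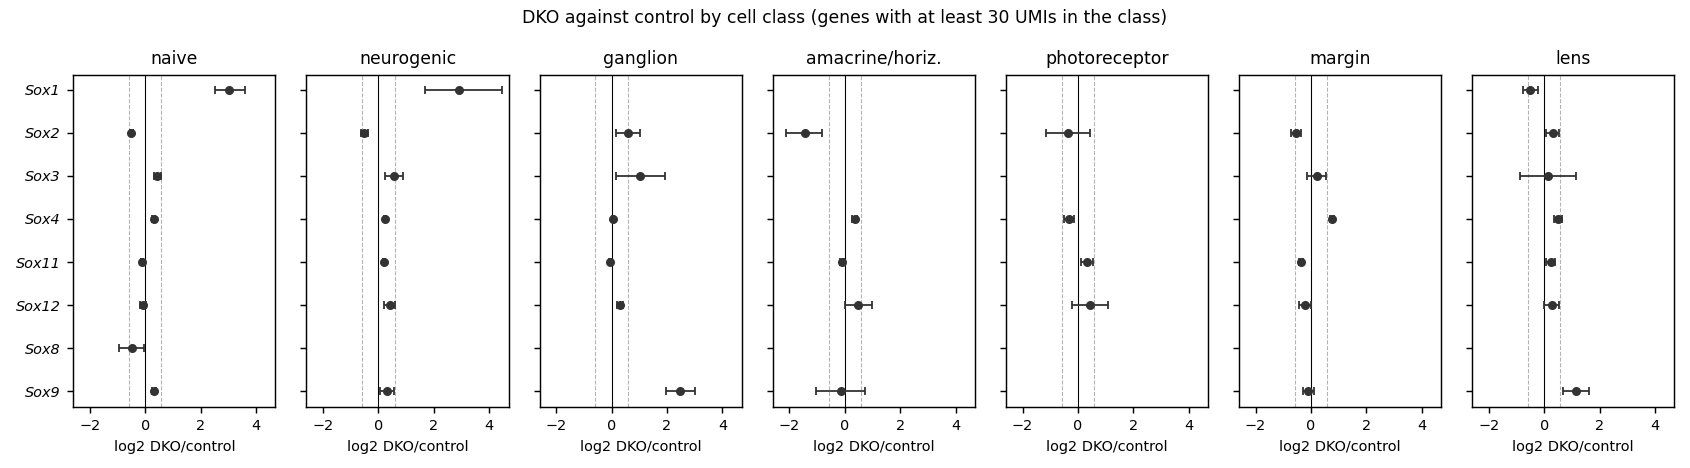
Log2 ratio of the DKO level over the control level (horizontal axis) for each SOX gene (rows) in 7 cell classes (panels), with 95% counting intervals; dashed lines mark 1.5-fold and genes with under 30 UMIs in a class are left out. Sox2 lies left of 0 in every class but ganglion-like and lens-like cells, with an interval that holds 0 in photoreceptor-like cells, and Sox1 lies right of 0 in both progenitor classes.

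The SOX genes also differed in clusters that no marker list named. Cluster 13 (534 DKO cells and 5 control cells) had Six3 at 84.1 CPM and Fabp7, a radial glia gene, at 575 CPM. Sox1 was at 35.7 CPM (200 UMIs) there against 8.28 CPM in DKO naive-like cells, a log2 ratio of 2.11 (1.81 to 2.41) within the same library. Sox3 was at 85.5 against 46.1 CPM, a log2 ratio of 0.89 (0.73 to 1.05). Sox4 was at 708 against 414 CPM and Sox11 at 735 against 521 CPM, log2 ratios of 0.77 (0.72 to 0.83) and 0.50 (0.44 to 0.55). Sox9 was at 113 against 96.5 CPM, a log2 ratio of 0.22 (0.09 to 0.35). Sox2 did not stand apart in cluster 13, at 195 against 183 CPM with a log2 ratio of 0.09 (-0.01 to 0.19).

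The cells of cluster 6 were not alike in the libraries: Fabp7 was at 2.26 CPM in control and 415 CPM in DKO cells, Calb1 at 28.0 and 101 CPM, and Dbx1 had 0 and 121 UMIs (23.1 CPM in DKO), genes that lead cluster 13. The part of this difference in the SOX values was not tested. Sox1 had 0 UMIs in 469 control cells and 77 UMIs (14.7 CPM) in 811 DKO cells, at least 17.3-fold higher when the control is set at 3 UMIs. A Sox1 UMI was found in 2.80% of thinned DKO cells of cluster 6 and 7.13% of those of cluster 13 (7.52% and 26.6% unthinned), against 0 of 539 DKO red blood-like cells, which allows up to 0.682%. Sox4 was at 269.7 CPM in control and 657 CPM in DKO cells of this cluster, a log2 ratio of 1.29 (1.18 to 1.39), Sox9 at 47.8 and 102 CPM, a log2 ratio of 1.09 (0.84 to 1.35), and Sox3 at 37.0 and 62.9 CPM, a log2 ratio of 0.77 (0.47 to 1.07). Sox2 was again lower in DKO, at 194 and 149.7 CPM. Six3 was at 219.6 and 112 CPM in the cells of cluster 6. Adding clusters 6 and 13 to the naive-like cells, an alternative chosen after seeing the data, left the Sox2 ratio at -0.50 and took the Sox4 ratio from 0.30 to 0.61.

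Within DKO naive-like cells, 610 of 2360 (25.8%) belonged to whole subclusters, made from DKO cells alone, in which Six3 was under 50% of its level in control naive-like cells. The limit was set on all cells of a subcluster, some of which lay outside the naive-like class, so the naive-like cells in them could lie above it. These Six3-low cells had Six3 at 159 CPM and the other 1750 cells at 346 CPM. Sox1 was at 18.3 CPM in the Six3-low cells and 4.21 CPM in the others, and at 1.01 CPM in control. Sox3 was at 58.5 and 41.1 CPM and Sox4 at 493 and 382 CPM in the same order, against 34.1 and 337 CPM in control. Sox2 was below the control in both, at 164 and 191 CPM against 259.7 CPM. Sox9 was at 70.1 CPM in the Six3-low cells, a log2 ratio to control of -0.14 (-0.29 to 0.00). In the others it was at 107 CPM, a log2 ratio of 0.47 (0.38 to 0.56). Within this class, the higher Sox9 of the DKO was thus carried by the cells that were not Six3-low. Outside the class, Sox9 was at 113 CPM in cluster 13 and 102 CPM in DKO cells of cluster 6, where Six3 was at 84.1 and 112 CPM. Six3-low margin-like cells had Sox9 at 77.9 CPM, against 78.6 CPM in control margin-like cells. Six6 was at 50.2 and 51.5 CPM in the Six3-low and other DKO naive-like cells.

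**Figure D4:**
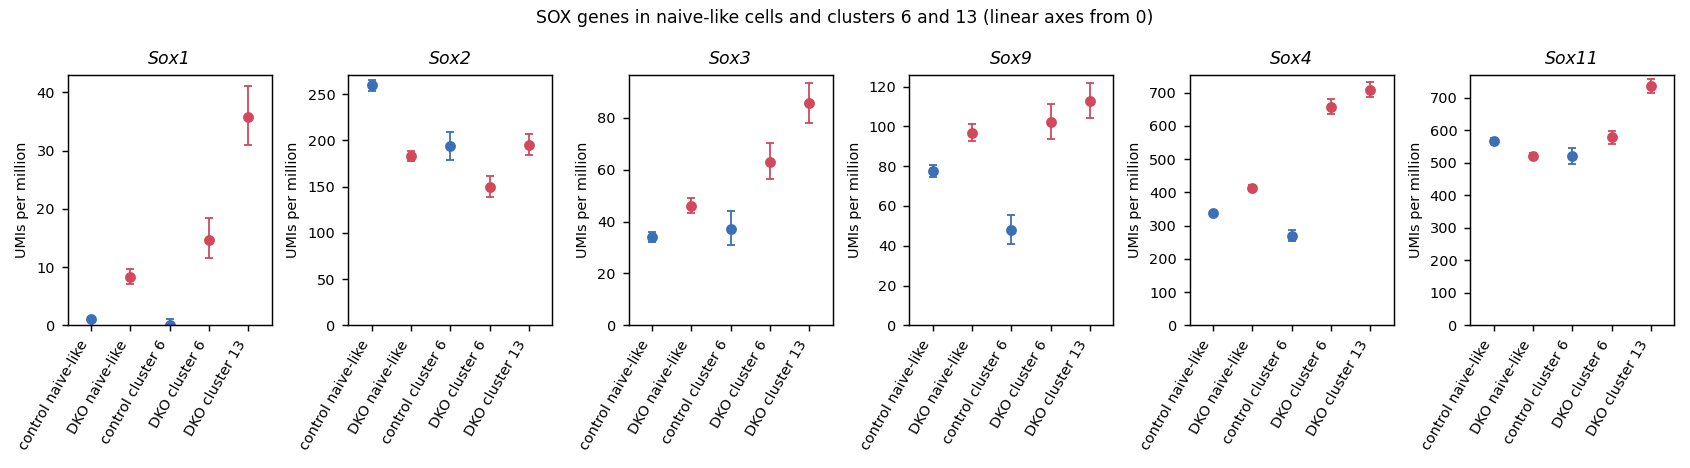
CPM of 6 SOX genes (vertical axes, linear and from 0) in control (blue) and DKO (red) naive-like cells and in clusters 6 and 13, with 95% Poisson intervals; control cells of cluster 13 (5 cells) are not shown. Sox1 goes from 1.01 in control naive-like cells to 8.28, 14.7 and 35.7 in DKO naive-like cells, cluster 6 and cluster 13, whereas Sox2 is below the control naive-like level of 259.7 in every DKO group shown.

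Over all ganglion-like cells, which were mixed in the DKO (subclusters below), Sox4 and Sox11 were close between the libraries, at 1846 and 1919 CPM and at 2650.3 and 2555 CPM. The log2 ratios were 0.06 (0.03 to 0.08) and -0.05 (-0.08 to -0.03). Sox9 stood out, with 34 UMIs (4.28 CPM) in 931 control cells and 347 UMIs (23.5 CPM) in 2092 DKO cells. The log2 ratio was 2.46 (1.95 to 3.01), and it was 1.61 at a clustering resolution of 1 and 0.60 with all genes allowed as clustering features. A Sox9 UMI was found in 0.758% (0.305 to 1.55) of thinned control and 4.65% (3.78 to 5.64) of thinned DKO ganglion-like cells, against 0.188% and 0.371% of red blood-like cells. Unthinned, the shares were 3.44% and 10.9% in ganglion-like cells and 0.559% and 1.27% in red blood-like cells. Sox9 was the 1 member of 5 with at least 100 UMIs that passed 1.5-fold, and it was higher, where the background was 7.65% of 9883 genes higher and 2.98% lower, 10.6% in either direction. The median over these 5 was 0.30, and over all genes 0.04. Sox2 was at 7.67 and 11.5 CPM, a log2 ratio of 0.58 (0.15 to 1.03) that became -0.26 when the libraries were merged without integration. Sox3 had 15 UMIs in control and 56 in DKO, and its log2 ratio of 1.01 (0.17 to 1.94) became -0.01 in the same setting. Sox12 was at 126 and 155 CPM, a log2 ratio of 0.30 (0.19 to 0.41).

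The Sox9 UMIs were unevenly spread over DKO ganglion-like cells, in a split looked at after these values were seen. Among the 6 subclusters of DKO cells that held at least 50 of them, lettered A to F by size, Sox9 was at 51.9 CPM (45.4 to 59.1) in A (707 cells), 37.3 CPM in F (86 cells) and 27.5 CPM in C (328 cells). In B (597 cells) and D (210 cells) it was at 3.13 and 3.57 CPM, and in E (146 cells) at 12 CPM (10 UMIs, 5.76 to 22.1), against 4.28 CPM (2.96 to 5.98) in control. The intervals of E and the control overlapped. Subclusters A, C and F had the lowest Six3, at 447, 639 and 258 CPM, where B, D and E had 922, 961 and 971 CPM and the control 741 CPM. Rspo3, a gene of cluster 11, was at 24.7, 6.67 and 84.0 CPM in A, C and F and at most 0.895 CPM in the others. The ganglion marker Isl1 was at 388, 649 and 289 CPM in A, C and F and 1016 CPM in control. In B, D and E it was at 1131, 1017 and 1382 CPM. Pou4f2 was at 73.5, 95.5 and 22.4 CPM in A, C and F and 241 CPM in control. In B, D and E it was at 126, 110.1 and 373 CPM. Sox4 and Sox11 were at 2143 and 2276 CPM in A and 1733 and 2764 CPM in B, against 1846 and 2650.3 CPM in control. Sox2 had intervals that overlapped the control's 7.67 CPM in B, D, E and F, and lay above it in A (16.8 CPM) and C (17.1 CPM). When the libraries were merged without integration, 988 of the 2092 cells were placed in a cluster with Tbr1 and Rspo3 that held 1684 DKO and 16 control cells. Sox9 was at 48.5 CPM in these 988 cells and 4.55 CPM in the remainder, and the Sox9 ratio over cells still named ganglion-like was -0.14.

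**Figure D5:**
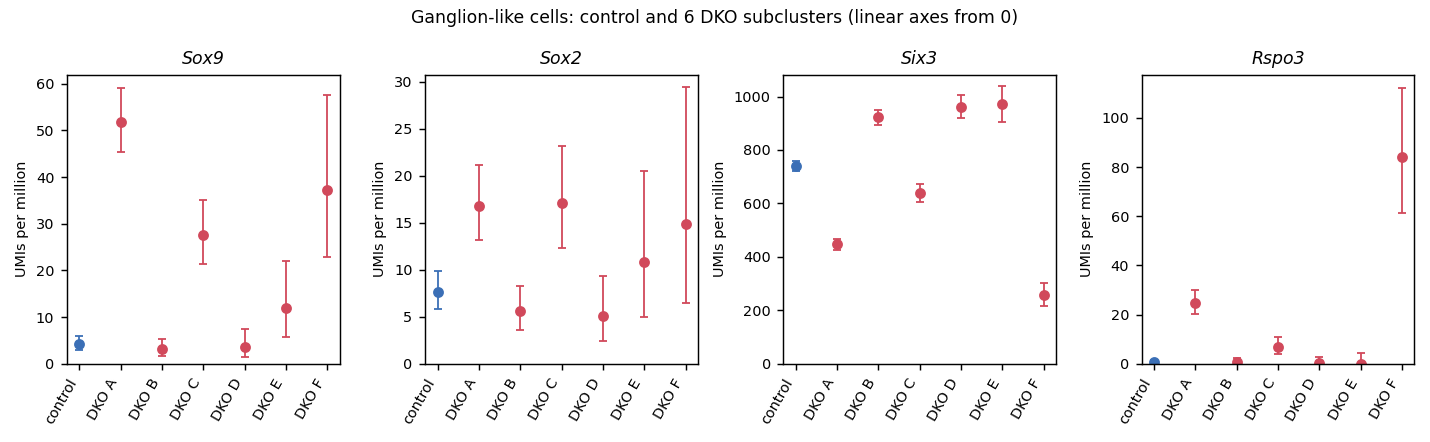
CPM (vertical axes, linear and from 0) of Sox9, Sox2, Six3 and Rspo3 in control ganglion-like cells (blue) and in 6 subclusters of DKO ganglion-like cells (red, A to F by size), with 95% Poisson intervals. Sox9 is highest in A, C and F, where Six3 is below the control level of 741. In E, where Six3 is 971, the Sox9 interval (5.76 to 22.1) overlaps that of the control (2.96 to 5.98).

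The neurons of cluster 11, found in the DKO library alone, held the highest Sox4 and Sox11 levels of any DKO class. Sox4 was at 3762 CPM (3692 to 3833) and Sox11 at 4859 CPM (4779 to 4939.5), log2 ratios of 0.97 and 0.93 over DKO ganglion-like cells. All 631 thinned cells had a Sox11 UMI and 630 a Sox4 UMI, against 4.45% and 2.97% of thinned DKO red blood-like cells. Sox2 was at 17.9 CPM, Sox9 at 23.0 CPM and Sox12 at 148 CPM, and 2 Sox1 UMIs were found. Six3 had 291 UMIs in these neurons (88.9 to 112 CPM).

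In amacrine- or horizontal-like cells Sox2 was at 96.9 CPM (72 UMIs) in control and 35.5 CPM (29 UMIs) in DKO, a log2 ratio of -1.45 (-2.12 to -0.81). A Sox2 UMI was found in 15.6% (9.81 to 23.1) of 128 thinned control cells and 5.41% (2.62 to 9.72) of 185 thinned DKO cells, and in 33.1% and 11.5% of unthinned cells. Sox2 was the 1 member of 4 with at least 100 UMIs that passed 1.5-fold, and it was lower, where the background was 3.83% of 2820 genes higher and 4.65% lower, 8.48% in either direction. The median over the 4 was 0.13, and over all genes -0.03. Sox4 was at 2688 and 3443 CPM and Sox11 at 4589.8 and 4284 CPM, log2 ratios of 0.36 and -0.10. In photoreceptor-like cells Sox4 was at 1405 CPM in control and 1124 CPM in DKO and Sox11 at 699.5 and 873 CPM, log2 ratios of -0.32 (-0.49 to -0.15) and 0.32 (0.11 to 0.53). The Sox11 ratio hung on few cells. In the 114 of 115 DKO cells outside Six3-low subclusters it was 0.18 (-0.04 to 0.40), with Sox11 at 792 CPM. It was 0.00 when the libraries were merged without integration. A Sox11 UMI was found in 63.4% of thinned control and 59.6% of thinned DKO photoreceptor-like cells. The Sox4 share of SOXC UMIs was 64.4% in control and 53.5% (50.2 to 56.8) in DKO photoreceptor-like cells, and neither of these 2 members with at least 100 UMIs passed 1.5-fold, where the background was 4.04% of 1732 genes higher and 2.37% lower, 6.41% in either direction.

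Margin-like cells parted Sox4 from Sox11. Sox4 was at 381 CPM (1622 UMIs) in control and 644 CPM (4543 UMIs) in DKO, a log2 ratio of 0.76 (0.68 to 0.84), while Sox11 was at 661 and 512 CPM, a log2 ratio of -0.37 (-0.44 to -0.30). Sox4 thereby went from 34.1% (32.8 to 35.5) to 52.8% (51.7 to 53.8) of the SOXC UMIs. It was the 1 member of 6 past 1.5-fold, against 6.09% of 8704 genes higher and 3.69% lower, 9.78% in either direction. The median over the 6 was -0.15, and over all genes 0.01. The 602 margin-like DKO cells in Six3-low subclusters had Sox4 at 717 CPM and Sox11 at 468 CPM, and the other 211 had 419 and 647 CPM, against 381 and 661 CPM in the control. Tubb3, a neuronal tubulin, was at 21.1 CPM in control and 74.9 CPM in DKO margin-like cells. Sox9 (78.6 and 73.4 CPM) and Sox3 (25.6 and 29.5 CPM) had intervals of the ratio that held 0. At a clustering resolution of 0.3, which put 2258 control and 2442 DKO cells in this class, the log2 ratios were 0.29 (0.19 to 0.39) for Sox9, 0.48 (0.32 to 0.63) for Sox3 and -0.06 for Sox11. Merged without integration, the class held 40 control and 1473 DKO cells. With under 50 control cells no margin-like ratio was taken in that setting.

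In lens-like cells Sox1 was lower and Sox9 higher in DKO. Sox1 was at 69.7 CPM (331 UMIs) in control and 49.0 CPM (178 UMIs) in DKO lens-like cells, a log2 ratio of -0.51 (-0.78 to -0.24). Sox2 was at 67.2 CPM (319 UMIs) and 83.2 CPM (302 UMIs), a log2 ratio of 0.31 (0.08 to 0.54). The median log2 ratio of all genes in lens-like cells was 0.20, which lies within the interval of Sox2 and outside that of Sox1. Sox3 had 20 and 17 UMIs, with a log2 ratio of 0.15 (-0.87 to 1.16). Sox9 was at 13.1 CPM (62 UMIs) and 28.9 CPM (105 UMIs), a log2 ratio of 1.15 (0.68 to 1.62). It was the 1 member of 6 past 1.5-fold, against a background of 11.7% of 7074 genes higher and 2.80% lower, 14.5% in either direction, and the median over the 6 was 0.29.

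The lens-like class joined cluster 14 (213 control and 256 DKO cells) and cluster 17, led by gamma crystallins (197 and 147 cells). Sox11 was at 145 and 139 CPM in cluster 14 but at 103 CPM (66 UMIs) and 342 CPM (147 UMIs) in cluster 17. Sox4 was higher in DKO in both, at 178 and 232 CPM in cluster 14 and 123 and 323 CPM in cluster 17. Its log2 ratio over all lens-like cells was 0.51 (0.37 to 0.65). The cells of cluster 14 differed in depth, with medians of 18266 UMIs in control and 10156 UMIs in DKO. The part of this difference in the lens-like ratios was not tested. The cells of cluster 17 were shallow, with medians of 1697 and 1600.0 UMIs. Red blood-like cells, which should lack both genes, had Sox4 at 6.13 CPM in control and 22.7 CPM in DKO and Sox11 at 12.9 and 25.5 CPM, also higher in the DKO library, and the part of such free RNA in the cluster 17 values was not tested.

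Of 19 genes linked to SOX factors by textbook knowledge, all 19 had at least 100 UMIs in naive-like cells, and 5 were past 1.5-fold higher and 6 lower in DKO, where the background was 4.59% of all genes higher and 2.16% lower. The median log2 ratio of the list was -0.06. Among genes linked to SOXB1 factors, Fabp7 was at 1.64 and 24.5 CPM (log2 ratio 3.90), Pou3f2, a POU partner of SOX2, at 38.5 and 69.3 CPM (0.85) and Hes5, a Notch effector, at 105 and 57.6 CPM (-0.86). Among genes linked to SOXC factors, the neuronal genes Tubb3 (27.6 and 42.2 CPM) and Dcx (1.93 and 7.49 CPM) had log2 ratios of 0.61 and 1.96. Nfia, a glial regulator linked to SOX9, was at 3.05 and 7.49 CPM. The other 5 past the limit, all lower, were the crystallins Cryga, Crygb, Crygc, Crygd and Crygf, which are lens genes. Cryga was at 29.3 and 5.24 CPM in naive-like cells, against 7514 and 881 CPM in lens-like cells. The part of free lens RNA in these crystallin values was not tested, and Hes5 was the only lower gene outside them. Pax6, Notch1, Nes and the rest of the list stayed within 1.5-fold.

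In neurogenic-like cells 15 of the 19 had at least 100 UMIs, with 4 higher (Pou3f2, Fabp7, Dcx and Neurod1) and 5 lower (Hes5, Slc1a3, Col9a1, Cryga and Crygc), against 6.37% and 4.47% of all genes. Dcx was at 25.3 and 164 CPM, a log2 ratio of 2.70 (2.51 to 2.90). In ganglion-like cells 14 had enough UMIs, with 3 higher (Pou3f2, Fabp7 and Neurod1) and 5 lower (Notch1, Tead2, Cryga, Crygc and Crygd), against 7.65% and 2.98%. In lens-like cells 12 had enough UMIs, with Notch1, Tubb3 and Col9a1 higher and all 5 crystallins lower, against 11.7% and 2.80%. In margin-like cells 16 had enough, with 6 higher (Pou3f2, Fabp7, Tubb3, Dcx, Crygc and Crygd) and Slc1a3 lower, against 6.09% and 3.69%. In amacrine- or horizontal-like cells 9 had enough, with Dcx higher and Notch1, Hes5 and Tead2 lower, against 3.83% and 4.65%. In photoreceptor-like cells 6 had enough, with Fabp7 higher, against 4.04% higher and 2.37% lower. The part of free lens RNA in the crystallin counts of classes other than lens-like cells was not tested. Cryga, which SOX1 and SOX2 activate in lens fibres, was at 7514 CPM in control and 881 CPM in DKO lens-like cells, a log2 ratio of -3.09 (-3.14 to -3.04), and Crygc at 2758 and 994 CPM, a log2 ratio of -1.47 (-1.53 to -1.42). Sox1 was at 72.6 and 50.3 CPM in cluster 14 and 51.4 and 39.5 CPM in cluster 17.

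Of the 11 other Sox genes in the table, 3 reached 20 CPM in a class or cluster of at least 50 cells, and each of them did so in the DKO library. Sox21, a SOXB2 gene that counters SOXB1 factors, was at 54.1 CPM (48.2 to 60.5) in cluster 13 and 40.4 CPM in DKO cells of cluster 6, with 0 UMIs in control cells of cluster 6. It had 0 UMIs in control and 53 UMIs (2.48 CPM) in DKO naive-like cells, at least 28.8-fold higher with the control set at 3 UMIs. Sox5, a SOXD gene, was at 80.8 CPM in cluster 11, and at 1.72 CPM (60 UMIs) in control and 8.42 CPM (180 UMIs) in DKO naive-like cells. Sox6, its SOXD relative, reached 28.7 CPM in cluster 13 and was at 0.834 and 3.74 CPM in naive-like cells, a log2 ratio of 2.17 (1.54 to 2.83). Of control naive-like cells thinned to 2000 UMIs, Sox9 was found in 14.6% (12.7 to 16.6) of those with a Sox2 UMI and 13.2% (11.8 to 14.8) of those without. The corresponding DKO naive-like shares were 22.8% (19.7 to 26.0) and 16.9% (15.1 to 18.9).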

How the data were processed

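The deposited files held raw UMI counts per gene and cell from 10x Genomics libraries, which the authors made with Cell Ranger 3.1.0 on mm10 (85589515 control and 85173276 DKO UMIs). The study's cell filter was applied (genes above 200 and below 6000, mitochondrial share below 20%), and the cells were integrated (2000 features, 20 dimensions) and clustered at resolution 0.5 in Seurat 5.3.0, with 791 genes left out of the features (Sox, SOX-linked and other named genes). A cluster took a list's name when at least 75% of its detected markers were above the remaining cells with a mean log2 fold of at least 0.8, and clusters with over 40% doublets stayed unnamed; this rule was set after the clusters were seen. Scrublet's own threshold called 0 control doublets, so 0.225, its DKO threshold, was applied to both (3.05% and 2.71%), and doublets were kept. Levels have exact Poisson, shares exact binomial (cells thinned to 2000 UMIs) and ratios exact binomial-split intervals. Only the ratio intervals were run on simulated counts, drawn from the Poisson model they assume. That run holds no variation between cells or embryos, so it cannot show how the intervals do on these data. Backgrounds cover genes with at least 100 UMIs. The genes named were the 8 members, other Sox genes reaching 20 CPM, linked genes past 1.5-fold and the 3 genes most like each member. Members and lists were chosen with earlier results of these data known.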

Additional observations from a re-analysis of the deposited data

Results flagged for a closer look

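The log2 ratio of DKO to control of 3 members lay on opposite sides of 0 in different classes, with both intervals clear of 0 and the ratios at least 1 apart, and the difference between the classes was not tested. Sox1 had 3.04 in naive-like cells and -0.51 in lens-like cells. Sox2 had 0.58 in ganglion-like cells, from 61 and 169 UMIs, and -1.45 in amacrine- or horizontal-like cells, from 72 and 29 UMIs. The ganglion-like Sox2 ratio turned to -0.26 when the libraries were merged without integration, and the opposite sign was then lost. Sox4 had 0.76 in margin-like cells and -0.32 in photoreceptor-like cells.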

How the results depend on the processing

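No paired analysis was possible because the study sequenced 1 control and 1 DKO library, with no replicate to pair. Over 51 log2 ratios, 482 of 581 alternatives stayed within the counting interval of the value reported, 97 lay outside it and 2 reversed a ratio past 1.5-fold: merged without integration, ganglion-like Sox9 was -0.14 and Sox3 -0.01. Of the 13 ratios past 1.5-fold, 10 kept their direction in every alternative taken and 1 (margin-like Sox4) stayed past it in every one. The merged setting left too few control margin-like cells, 40, for a value. Taken as log2 of the mean count per 10000 plus 1, genes at a few CPM must lie near 0, as naive-like Sox1 did at 0.11. For such genes the count of 1 does not measure how stable a ratio is. The Sox2 ratio in naive-like cells (-0.50) was -0.26 merged, -0.44 as a mean over cells, -0.31 as log2 of the mean count per 10000 plus 1, -0.66 with Six3-low DKO cells and -0.41 in G1 cells. The Sox4 ratio (0.30) was 0.54 at resolution 0.3, 0.19 at resolution 1, 0.03 merged, 0.37 with all genes as features, 0.24 as a mean over cells, 0.19 on the log2 plus 1 scale, 0.55 with Six3-low cells, 0.91 in G1 and 0.61 with clusters 6 and 13 added. The Sox9 ratio (0.32) was 0.41 at resolution 1, 0.60 merged, 0.18 on the log2 plus 1 scale, -0.14 with Six3-low cells and 0.42 with clusters 6 and 13 added. The Sox11 ratio in neurogenic-like cells (0.20) was 0.23 and 0.02 at resolutions 0.3 and 1, 0.26 merged, 0.04 with another OpenBLAS kernel, 0.25 as a mean over cells and 0.24 on the log2 plus 1 scale. The G1 setting and the added clusters were chosen after seeing the data, and the cause of these moves was not tested. Neurogenic-like Six3-low cells were under 50, so that setting gave no Sox11 value.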
